A study of Mus musculus with 8 samples.

Results

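To describe the mRNAs of genes that restrain signals from the T cell receptor (TCR), 8 genes were followed in RNA sequencing libraries from naive CD4 T cells and from the effector subsets Th1, Th2 and Th17. The genes were the ubiquitin ligases *Cbl*, *Cblb*, *Itch*, *Rnf128* and *Peli1*, the ligase activator *Ndfip1*, and the diacylglycerol kinases *Dgka* and *Dgkz*. They were taken by symbol from tables that list 23284 genes, and each had a single row per library. The libraries had been made to survey surface molecules of effector cells. Each of the 4 groups had 2 libraries, numbered replicates 1 and 2, and all cells came from DO11.10 Tg mice, whose T cells carry a transgenic TCR for an ovalbumin peptide. Naive cells were CD44low CD4+ cells sorted from spleen and were not cultured. The effector cells grew from the same kind of sorted cells over 6 days with peptide and irradiated splenocytes depleted of T cells. Th1 cultures contained IL-2 (30 U/ml), IL-12 (100 U/ml) and anti-IL-4 antibody (1 μg/ml). Th2 cultures contained IL-2 (30 U/ml), IL-4 (100 U/ml) and anti-IFN-γ antibody (10 μg/ml). Th17 cultures contained IL-6, IL-1β and IL-23 (10 ng/ml each) with both antibodies (10 μg/ml each). Time in culture, stimulation and cytokines thus cannot be told apart in a comparison with naive cells, and the labels do not say whether the libraries of a group came from separate mice, so p-values measure the spread between these libraries only.

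When the TCR is engaged without co-stimulation, a T cell can become anergic, a state in which it no longer answers antigen. Ubiquitin ligases contribute to that state by marking signaling proteins for degradation or for altered sorting in the cell. c-Cbl (*Cbl*) and Cbl-b (*Cblb*) are RING finger ligases that act close to the receptor, Itch is a HECT ligase that is switched on by the membrane adaptor Ndfip1, GRAIL (*Rnf128*) is a transmembrane RING ligase first described in anergic CD4 T cells, and Peli1 is a ligase that limits c-Rel. Diacylglycerol kinases act on a lipid instead. They convert diacylglycerol, which recruits RasGRP1 and PKCθ to the membrane, into phosphatidic acid, and DGKα (*Dgka*) and DGKζ (*Dgkz*) are the isoforms best known in T cells.

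The sequences just upstream of 3 of these genes are shown because their mRNAs carried the largest relative differences between groups, *Rnf128* in Th2 cells, *Cblb* in Th2 against the other effector cells and *Dgka* in naive cells. Each is the 250 bases before a RefSeq transcription start of GRCm38 (mm10), written 5′ to 3′ on the strand of the gene. The window of *Rnf128* is chrX:139610370-139610619 on the plus strand, that of *Cblb* chr16:52031299-52031548 on the plus strand and that of *Dgka* chr10:128744077-128744326 on the minus strand. Capitals mark the GC box GGGCGG and the CCAAT box CCAAT, read on both strands. The *Dgka* start is the nearest of 4 to the gene end in the tables, at a distance of 20 bases. *Rnf128* has 2 starts in the tables, and only the downstream one, 47280 bases from the upstream gene end, had a sequence to print.
*Rnf128*: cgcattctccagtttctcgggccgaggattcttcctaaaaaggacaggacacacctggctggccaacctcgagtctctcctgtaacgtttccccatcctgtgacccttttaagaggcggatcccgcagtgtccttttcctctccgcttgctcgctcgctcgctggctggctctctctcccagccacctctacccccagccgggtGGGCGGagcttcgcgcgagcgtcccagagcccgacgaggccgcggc
*Cblb*: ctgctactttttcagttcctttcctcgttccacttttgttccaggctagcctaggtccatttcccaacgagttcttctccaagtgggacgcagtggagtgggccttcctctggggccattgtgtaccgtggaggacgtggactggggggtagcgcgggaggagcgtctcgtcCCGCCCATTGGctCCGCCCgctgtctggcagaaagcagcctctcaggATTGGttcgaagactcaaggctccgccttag
*Dgka*: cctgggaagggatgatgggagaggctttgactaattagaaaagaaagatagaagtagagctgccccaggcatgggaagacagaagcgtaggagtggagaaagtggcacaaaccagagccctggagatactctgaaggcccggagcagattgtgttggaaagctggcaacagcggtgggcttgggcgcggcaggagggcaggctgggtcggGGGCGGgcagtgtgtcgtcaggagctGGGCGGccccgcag
The GC box occurred 1 time in the *Rnf128* window, 2 times in the *Cblb* window and 2 times in the *Dgka* window, and 32.7% of the 32851 upstream windows in the reference hold it. The CCAAT box occurred 2 times in the *Cblb* window, 1 of them directly next to a GC box, and 33.8% of all windows hold it. Also searched on both strands were the GATA core GATAA, the STAT spacing TTCNNNGAA, the STAT6 form of it with 1 more base between the arms, and the FOXO core GTAAACA. None of the 3 windows held any of these letters, against 22.6%, 7.02%, 5.85% and 3.17% of all windows. G and C made up 63.2% of the *Rnf128* window, 58.8% of the *Cblb* window and 60.0% of the *Dgka* window.

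Expression was given by the authors as FPKM, a fragment count scaled by exon length and library size, so that levels can be compared between genes. The tables hold no counts. The number of fragments implied by the confidence interval of each value summed to between 14463466 and 21058286 per library, the naive libraries being the shallowest. Markers followed the labels. The summed FPKM of *Il4*, *Il5*, *Il13* and *Gata3* was 384 to 417 in Th2 and 6.75 to 26.4 in the other libraries, the FPKM of *Il17a* was 347 and 335 in Th17 and at most 0.711 elsewhere, and the summed FPKM of *Ifng*, *Tbx21* and *Il12rb2* was 898 to 1040 in Th1 and at most 132 elsewhere, most of which was *Il12rb2*. *Ccr7*, a homing receptor of naive T cells, had an FPKM of 327 and 310 in naive and 37.8 to 160 in effector libraries. *Cd3e* and *Cd4*, which mark CD4 T cells, summed to 709 to 715 in naive and 401 to 522 in effector libraries. Markers of other cells were low. Over 5 B cell markers the sum was 2.33 to 12.2, over 5 myeloid markers 7.94 to 27.8 with the highest values in Th2, over 4 dendritic cell markers 0.708 to 3.90, and over 4 neutrophil precursor markers 0.0187 to 9.17 with the high values in replicate 1 of each effector subset. *Cd8b1* had an FPKM of 90.5 and 52.8 in naive and 8.77 to 12.9 in effector libraries, while *Cd8a* did not exceed 2.94. The part of such cells in the results was not tested. In bulk RNA, fewer cells that express a gene and less RNA of it per cell cannot be told apart.

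Across the 8 genes, the diacylglycerol kinases and *Peli1* fell in every effector subset, *Ndfip1* rose in every subset, and *Cblb*, *Itch* and *Rnf128* depended on the subset. *Cbl* had no difference past the threshold. Values were compared with limma on log2(FPKM + 1) over the 11198 genes whose mean FPKM reached 1, two-sided, with Benjamini-Hochberg adjustment and a threshold of 0.05. In Th1 cells 3 of the 8 genes exceeded naive cells (33.8% of all genes tested did so) and 3 were below them (33.5%), together 67.3% of all genes. For Th2 cells, 2 of the 8 were above (31.8%) and 4 below (38.7%), together 70.5% of all genes. For Th17 cells, 3 were above (37.5%) and 4 below (29.8%), together 67.3% of all genes. The share of these genes that differed from naive cells was thus near that of all genes. Between subsets, 3 of the 8 differed between Th1 and Th2 cells, against 44.3% of all genes, with 2 higher in Th1 (27.4%) and 1 lower (16.9%). Between Th17 and Th2 cells 3 differed, against 43.6%, with 1 higher in Th17 (31.7%) and 2 lower (12.0%). Between Th1 and Th17 cells 2 differed, against 25.1%, with 1 higher in Th1 (9.17%) and 1 lower (16.0%). The median difference of the 8 genes from naive cells was 0.01 for Th1, -0.63 for Th2 and -0.37 for Th17 cells, and that of all genes tested was -0.01, -0.11 and 0.08. The 3 comparisons with naive cells share the naive libraries. All 8 genes passed the filter on low values, *Rnf128* only through its Th2 libraries, since its mean FPKM was 0.563 over the other libraries.

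**Figure D1:**
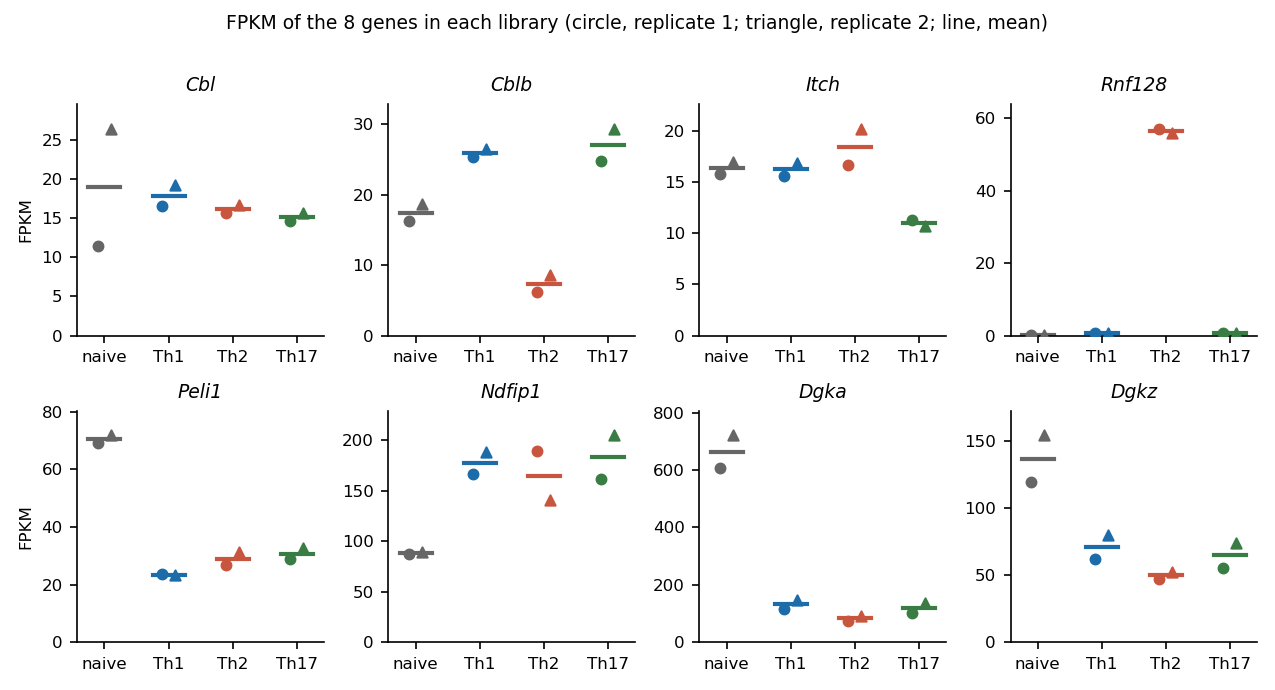
FPKM (y axis, linear from 0) of each of the 8 genes by group (x axis), with 1 point per library (circle, replicate 1; triangle, replicate 2) and a line at the mean of the 2 libraries. *Rnf128* is near 0 outside Th2 cells, *Cblb* is lowest in Th2 cells, and *Dgka*, *Dgkz* and *Peli1* are highest in the naive libraries.

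*Rnf128*, which encodes GRAIL, was abundant in Th2 cells and near 0 in the other groups. In mm10 it lies on chromosome X, from 139563340 to 139673145. FPKM values were 57.1 and 55.8 in the Th2 libraries, 0.154 and 0.155 in naive, 0.792 and 0.739 in Th1, and 0.804 and 0.732 in Th17 libraries. Both Th2 libraries stood far above the others, and no other group overlapped them. The value in Th2 cells, 56.5 ± 0.934 (SD, n = 2), was 73.8 times that in Th1 and 73.5 times that in Th17 cells. On the log2(FPKM + 1) scale, the difference of Th1 from Th2 cells was -5.02 (standard error 0.09, adjusted p = 1.06e-06, limma) and that of Th17 cells was likewise -5.02 (adjusted p = 8.96e-07, limma). Because the gene entered the test through Th2 alone, some difference between Th2 and the other groups followed from the filter. The implied fragments were 4420 and 4278 in Th2, 8 in each naive library and 44 to 63 in Th1 and Th17 libraries. Th2 cells exceeded naive cells by 5.64 (standard error 0.09, adjusted p = 6.5e-08, limma), a size that depends on the pseudocount at so few naive fragments. Th1 and Th17 cells exceeded naive cells by 0.61 each (adjusted p = 0.000737 and 0.000703, limma). With quantile normalization these differences turned to -0.15 in Th1 (adjusted p = 0.152) and -0.37 in Th17 cells (adjusted p = 0.00758, limma), so the direction outside Th2 cells rested on the scaling. *Rnf128* did not differ between Th1 and Th17 cells past the threshold (difference 0.00, 95% confidence interval -0.21 to 0.21).

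*Cblb* had the opposite order in Th2 cells. Cbl-b is a ligase that sets the requirement for CD28 co-stimulation, and its gene is on chromosome 16 from 52031549 to 52208046. Its FPKM was 6.13 and 8.59 in Th2, 16.3 and 18.6 in naive, 25.4 and 26.5 in Th1, and 24.8 and 29.4 in Th17 libraries. The Th2 libraries lay below all others, the naive libraries came next, and the Th1 and Th17 libraries overlapped at the top. Th1 cells exceeded Th2 cells by 1.70 (standard error 0.16, adjusted p = 0.00026, limma) and Th17 cells exceeded them by 1.76 (adjusted p = 0.000336, limma), or 3.52 and 3.68 times on the FPKM scale. Against naive cells, *Cblb* fell in Th2 cells by 1.15 (adjusted p = 0.000568, limma) and rose in Th1 by 0.55 (adjusted p = 0.0197) and in Th17 by 0.60 (adjusted p = 0.0131, limma). The calls for the rises in Th1 and Th17 cells were lost when certain single libraries were left out, although the differences then were still 0.46 to 0.58 in Th1 and 0.49 to 0.51 in Th17 cells. The lone library left in such a group is assumed to vary like the other groups. Without naive replicate 1 their adjusted p-values were 0.0982 and 0.0713 (limma). Without Th1 replicate 1 or Th1 replicate 2 the value for Th1 was 0.0628 or 0.0851, and without Th17 replicate 2 that for Th17 was 0.0841 (limma). Between Th1 and Th17 cells the difference was -0.06 (95% confidence interval -0.44 to 0.33).

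*Cbl*, whose product shares with Cbl-b the domain that binds phosphotyrosine and the RING finger, could not be placed against naive cells. It is on chromosome 9 from 44149262 to 44234046. The 2 naive libraries had an FPKM of 11.5 and 26.5, a ratio of 2.30, with 1290 and 2948 implied fragments, while the effector libraries had 16.6 and 19.3 in Th1, 15.7 and 16.7 in Th2 cells, and 14.7 and 15.7 in Th17. All 6 effector libraries thus lay between the 2 naive libraries. The differences from naive cells were 0.02, -0.11 and -0.20 in Th1, Th2 and Th17 cells, with a 95% confidence interval of -0.75 to 0.79 for Th1 (adjusted p = 0.958, 0.777 and 0.608, limma). Without naive replicate 1 the differences were -0.54, -0.68 and -0.77, and without naive replicate 2 they were 0.59, 0.46 and 0.37. Each of these fits left a single naive library, which was assumed to vary like the other groups, so only the sizes are given. Among effector cells, the differences were at most 0.22 (Th1 minus Th17, 95% confidence interval -0.55 to 0.99). The ratio of *Cblb* to *Cbl* FPKM was 1.53 and 1.38 in Th1, 1.69 and 1.87 in Th17, and 0.391 and 0.514 in Th2 libraries, so that *Cbl* was the more abundant of the 2 mRNAs in Th2 cells only among the effector subsets. In the naive libraries the ratio was 1.41 and 0.703.

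*Itch* was lowest in Th17 cells. Itch targets JunB in T cells and limits Th2 cytokines in mice, and its gene is on chromosome 2 from 155133481 to 155226855. Its FPKM was 15.8 and 17.04 in naive, 15.7 and 16.9 in Th1, 16.7 and 20.3 in Th2 cells, and 11.4 and 10.7 in Th17 libraries. Both Th17 libraries lay below the 6 others, which overlapped. On the log2(FPKM + 1) scale, Th17 minus naive was -0.54 (standard error 0.11, adjusted p = 0.00465, limma), and Th17 minus Th2 was -0.69 (adjusted p = 0.0035, limma). Th1 cells exceeded Th17 cells by 0.52 (adjusted p = 0.016, limma). This call was lost without any single Th1 or Th17 library, the difference then being 0.47 to 0.58. The lone library left in the group was assumed to vary like the other groups. Th1 and Th2 cells differed from naive cells by -0.01 (95% confidence interval -0.28 to 0.26) and 0.16 (-0.11 to 0.42).

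*Ndfip1*, the adaptor that recruits and activates Itch and related ligases, rose in all 3 subsets. Its FPKM was 87.4 and 89.9 in naive, 166 and 188 in Th1, 189 and 140 in Th2 cells, and 162 and 205 in Th17 libraries. The naive libraries lay below every effector library, and the effector groups overlapped. The log2 differences from naive cells were 0.99, 0.87 and 1.03 in Th1, Th2 and Th17 cells (standard error 0.18, adjusted p = 0.0022, 0.00369 and 0.00176, limma). Between subsets the differences were 0.12 for Th1 minus Th2 (95% confidence interval -0.30 to 0.54), 0.16 for Th17 minus Th2 (-0.26 to 0.58) and -0.04 for Th1 minus Th17 (-0.46 to 0.38). *Itch* thus had 0.181 and 0.190 times the FPKM of *Ndfip1* in naive libraries and 0.0523 to 0.144 times in effector libraries.

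*Peli1* fell in all subsets. The Peli1 ligase restrains T cell activation through c-Rel, and its gene is on chromosome 11 from 21091324 to 21150327. Its FPKM was 69.1 and 71.7 in naive, 23.6 and 23.4 in Th1, 26.7 and 31.3 in Th2 cells, and 28.8 and 32.7 in Th17 libraries. Every effector library lay below the naive libraries, and both Th1 libraries lay below the other effector libraries. The log2 differences from naive cells were -1.54, -1.25 and -1.17 in Th1, Th2 and Th17 cells (standard error 0.11, adjusted p = 2.27e-05, 5.3e-05 and 8.15e-05, limma). Th1 cells were lower than Th17 cells by -0.37, close to the threshold (adjusted p = 0.0476; 0.0187 to 0.223 over the alternatives, limma). Th1 cells differed from Th2 cells by -0.29 (adjusted p = 0.0694, limma), and with the replicate number as a block this difference passed (adjusted p = 0.0286). *Peli1* made up 61.2% and 53.5% of the summed FPKM of the 5 ligases in the naive libraries, and 21.8% to 36.7% in effector libraries. In Th2 libraries, *Rnf128* held the largest share, 46.7% and 42.0%.

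**Figure D2:**
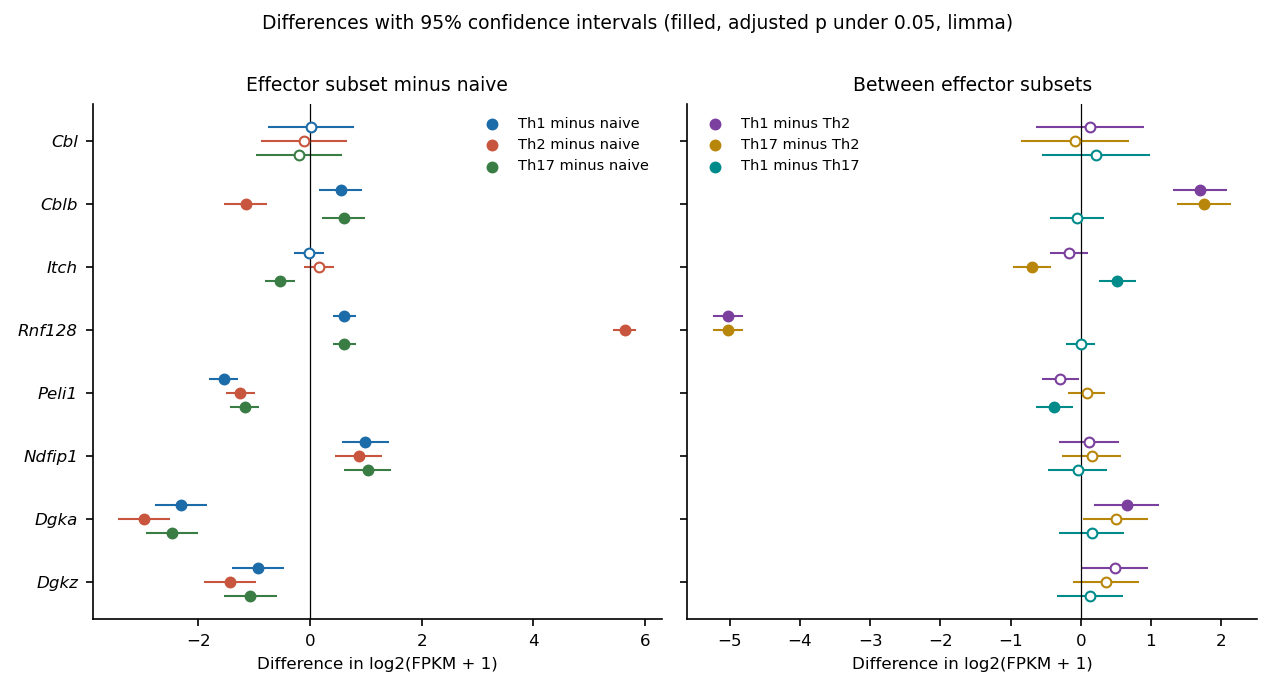
Differences in log2(FPKM + 1) (x axis) for each of the 8 genes (y axis), effector subset minus naive on the left and between effector subsets on the right, with 95% confidence intervals; filled points passed an adjusted p of 0.05 (limma). *Rnf128* stands at 5.64 for Th2 minus naive and -5.02 for both other subsets minus Th2, whereas *Dgka*, *Dgkz* and *Peli1* lie left of 0 in all 3 subsets.

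*Dgka* had the largest fall of the 8 genes. It is on chromosome 10 from 128720136 to 128744056. Its FPKM was 607 and 720 in naive, 118 and 148 in Th1, 76.2 and 91.4 in Th2 cells, and 102 and 137 in Th17 libraries. The naive libraries were far above all effector libraries, and the Th2 libraries were the lowest. The mean FPKM was 0.200, 0.126 and 0.180 times the naive mean in Th1, Th2 and Th17 cells. The log2 differences from naive cells were -2.32, -2.97 and -2.47 (standard error 0.19, adjusted p = 5.32e-05, 1.29e-05 and 3.36e-05, limma), and they ranged from -3.10 to -2.15 over all subsets and alternatives. Th1 cells exceeded Th2 cells by 0.65 (adjusted p = 0.0321; 0.00124 to 0.172 over the alternatives, limma). That call was lost with quantile normalization (0.122) and with no filter on low values (0.0566). It was also lost without Th1 replicate 2, Th2 replicate 1 or Th2 replicate 2, the differences then being 0.49, 0.52 and 0.79. In those fits the lone library of the group was assumed to vary like the other groups. Th17 cells exceeded Th2 cells by 0.50 (adjusted p = 0.0779), which passed with the replicate block (adjusted p = 0.00388, limma). A single exon overlap was annotated for *Dgka*, with *Pmel* on the opposite strand, over 2.21% of its exon bases.

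*Dgkz* followed with a smaller fall. It is on chromosome 2 from 91932822 to 91963563. Its FPKM was 120 and 154 in naive, 62.3 and 79.7 in Th1, 47.3 and 52.5 in Th2 cells, and 55.7 and 74.3 in Th17 libraries. All effector libraries lay below the naive libraries. Both Th2 libraries lay below those of Th1 and Th17, which overlapped. The log2 differences from naive cells were -0.94, -1.43 and -1.07 in Th1, Th2 and Th17 cells (standard error 0.20, adjusted p = 0.00466, 0.000541 and 0.00249, limma). Between subsets no difference passed, the largest being 0.49 for Th1 minus Th2 (95% confidence interval 0.02 to 0.96, adjusted p = 0.0834, limma). With the replicate block it passed (adjusted p = 0.00505), as did 0.36 for Th17 minus Th2 (adjusted p = 0.016, limma). For both kinases, replicate 2 was above replicate 1 in each of the 4 groups, by a ratio of 1.19 to 1.34 for *Dgka* and 1.11 to 1.33 for *Dgkz*. Reads of *Dgkz* could be shared with *Gm9821*, which lies on the opposite strand over 3.54% of its exon bases.

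Among all 10 mouse diacylglycerol kinase genes, *Dgka* held the largest share of the mRNA in every library. Their summed FPKM was 807 and 970 in naive, 220 and 276 in Th1, 150 and 170 in Th2 cells, and 187 and 242 in Th17 libraries. *Dgka* made up 74.7% ± 0.656 of it in naive, 53.6% ± 0.0459 in Th1 cells, 52.4% ± 2.15 in Th2 and 55.7% ± 1.33 in Th17 cells (SD, n = 2). *Dgkz* made up 15.4% ± 0.745, 28.6% ± 0.378, 31.3% ± 0.464 and 30.3% ± 0.579 in the same order. The ratio of *Dgka* to *Dgkz* was 4.67 and 5.06 in naive libraries and 1.61 to 1.89 in effector libraries, with no overlap. Of the 8 other kinases, 5 passed the filter, and 2 of these were higher and 3 lower in Th1, 1 higher and 3 lower in Th2, and 1 higher and 3 lower in Th17 than in naive cells. Among all genes tested, 33.8%, 31.8% and 37.5% were higher and 33.5%, 38.7% and 29.8% lower in the same order. *Dgkd*, of the δ type, was the most abundant of the 8 other kinases and fell from an FPKM of 77.4 ± 9.21 in naive cells to 34.4 ± 5.25 in Th1 cells, 19.3 ± 0.402 in Th2 and 19.5 ± 2.18 in Th17 cells (SD, n = 2). Its log2 differences were -1.15, -1.95 and -1.93 (adjusted p = 0.000367, 2.29e-05 and 2.47e-05, limma). *Dgkq* fell by 0.85, 1.16 and 0.72 and *Dgke* fell by 0.80, 0.47 and 0.62 in Th1, Th2 and Th17 cells on the same scale. *Dgkg* rose by 1.59, 0.90 and 1.72, from an FPKM of 0.0372 ± 0.006 in naive cells to 2.14 ± 0.371, 0.930 ± 0.058 and 2.44 ± 0.44 (SD, n = 2). *Dgkh* rose in Th1 cells by 1.18 (adjusted p = 0.00127, limma), the differences in Th2 and Th17 cells being 0.39 and 0.49 (adjusted p = 0.105 and 0.0548). At these low levels 1 call of each gene was lost with another scaling. With quantile normalization the difference of *Dgkh* in Th1 cells was 0.46 (adjusted p = 0.0768) and that of *Dgkg* in Th2 cells 0.25 (adjusted p = 0.186, limma), while the calls of *Dgkg* in Th1 and Th17 cells held. *Dgke* in Th2 cells did not pass with median scaling (adjusted p = 0.087), and *Dgkh* in Th17 cells passed with the replicate block (adjusted p = 0.0274, limma).

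**Figure D3:**
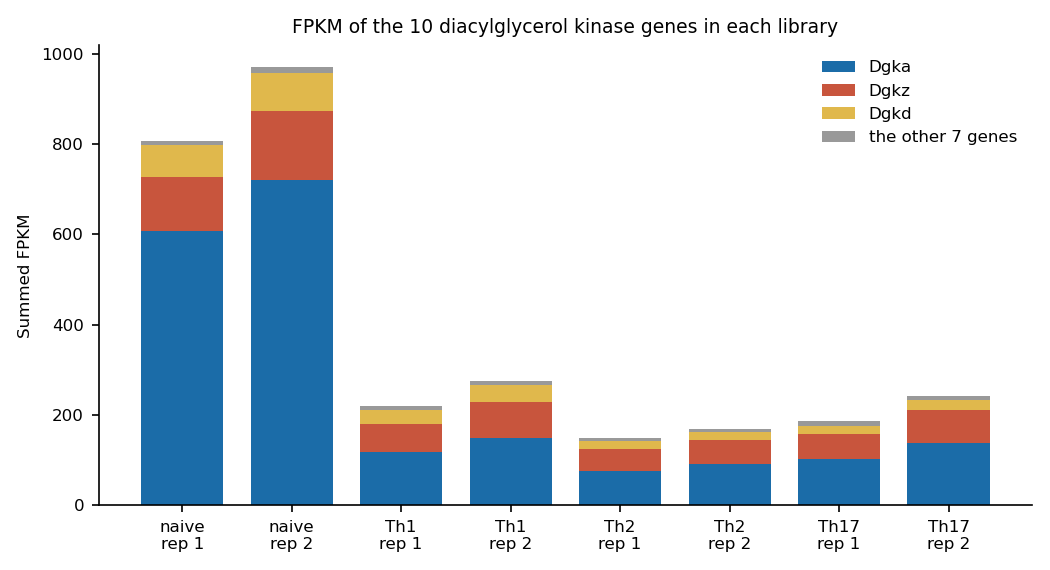
Summed FPKM (y axis) of the 10 diacylglycerol kinase genes in each library (x axis), stacked by gene, the grey part being the other 7 genes. The bars reach 807 and 970 in the naive libraries and 150 to 276 in the effector libraries, and *Dgka* is the largest part of each.

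The genes that make or answer diacylglycerol were then examined. Of 19 listed, 16 were tested, and 3 were higher and 9 lower in Th1, 4 higher and 10 lower in Th2, and 4 higher and 11 lower in Th17 than in naive cells. Their median differences were -0.51, -0.75 and -0.68, against -0.01, -0.11 and 0.08 for all genes tested. Of all those genes, 33.8%, 31.8% and 37.5% were higher and 33.5%, 38.7% and 29.8% lower. *Rasgrp2*, an exchange factor for Rap1, fell from an FPKM of 146 ± 8.86 in naive cells to 15.6 ± 2.16 in Th1 cells, 5.40 ± 0.133 in Th2 and 2.59 ± 0.224 in Th17 cells (SD, n = 2; log2 differences -3.15, -4.52 and -5.36). *Prkd2*, the protein kinase D isoform that prevails in T cells, fell from 120 ± 11.7 to 38.1 ± 3.91, 29.7 ± 1.76 and 35.7 ± 4.12 in the same order. Changes in the other direction were found for *Plcg2*, the phospholipase Cγ best known from B cells, with 0.353 ± 0.0892 in naive and 16.6 ± 2.91, 2.73 ± 0.495 and 9.72 ± 1.34 in Th1, Th2 and Th17 cells. *Rasgrp4*, a Ras exchange factor known from mast cells and other myeloid cells, rose from 1.64 ± 0.13 to 9.03 ± 1.25, 13.5 ± 1.63 and 6.65 ± 1.08 (SD, n = 2). The adjusted p-values of these 4 genes against naive cells were 1.77e-07 to 0.000182 (limma).

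Genes of ligase partners and relatives moved in both directions. Of 23 listed, 19 were tested, and 5 were higher and 9 lower in Th1, 6 higher and 8 lower in Th2, and 4 higher and 9 lower in Th17 than in naive cells, with median differences of -0.25, -0.20 and -0.20. The shares of all genes tested were 33.8%, 31.8% and 37.5% higher and 33.5%, 38.7% and 29.8% lower. *Nedd4*, a HECT ligase of the same family as Itch that is also activated by Ndfip1, rose from an FPKM of 1.55 ± 0.0168 in naive cells to 18.5 ± 0.673 in Th1 cells, 31.0 ± 2.21 in Th2 and 35.5 ± 1.48 in Th17 cells (SD, n = 2). Its log2 differences were 2.93, 3.65 and 3.84 (standard error 0.09, adjusted p = 5.06e-07, 2.09e-07 and 2.28e-07, limma). *Dtx1*, which encodes Deltex1, a ligase also linked to anergy, had 41.8 and 56.9 in naive libraries and 0.0926 to 0.437 in effector libraries, with log2 differences of -5.49, -5.30 and -5.16 (adjusted p = 4.66e-07, 4.38e-07 and 4.99e-07, limma). *Ubash3b*, whose product Sts-1 is a phosphatase that binds Cbl proteins, fell from 6.80 ± 0.578 to 1.99 ± 0.669, 2.26 ± 0.0614 and 1.63 ± 0.258. *Rc3h1*, encoding the RNA-binding protein Roquin-1, fell from 9.45 ± 0.563 to 4.34 ± 0.0728, 3.07 ± 0.483 and 3.91 ± 0.107 in the same order (SD, n = 2).

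Genes whose proteins have been described as targets of these ligases were examined next. Of 21 tested, 2 were higher and 14 lower in Th1, 5 higher and 14 lower in Th2, and 3 higher and 12 lower in Th17 than in naive cells, with median differences of -0.54, -0.68 and -0.47. Over all genes tested, 33.8%, 31.8% and 37.5% were higher and 33.5%, 38.7% and 29.8% lower. The medians over all genes were -0.01, -0.11 and 0.08. The counts and medians of the other lists are also to be read against these values. *Prkcq*, which encodes PKCθ and is also a diacylglycerol target, fell from an FPKM of 140 ± 7.44 in naive cells to 61.7 ± 7.02 in Th1 cells, 24.8 ± 1.92 in Th2 and 44.9 ± 3.83 in Th17 cells (SD, n = 2). *Fyn*, a Src family kinase, fell from 93.4 ± 3.41 to 65.4 ± 8.48, 14.7 ± 2.15 and 29.8 ± 4.31, and *Cd40lg*, which encodes CD40 ligand, a target of GRAIL, fell from 85.9 ± 15.4 to 57.2 ± 10.5, 6.21 ± 1.04 and 32.0 ± 5.46. The fall of *Cd40lg* in Th1 cells, -0.58 (adjusted p = 0.0375), did not pass with median scaling (adjusted p = 0.0635, limma). *Cd83*, another target of GRAIL, rose in Th2 cells by 2.74 and in Th17 cells by 1.32 (adjusted p = 1.11e-06 and 3.78e-05, limma), from 1.07 ± 0.0756 in naive to 12.8 ± 1.21 and 4.17 ± 0.292. In Th1 cells its difference was 0.11 (adjusted p = 0.39), and with quantile normalization -0.49 (adjusted p = 0.00568, limma). *Rnf128* and *Cd83* were both highest in Th2 cells, where *Cd40lg*, *Fyn* and *Prkcq* were lowest. Other genes of the list, named after their values were seen, also had an extreme mean there. *Zap70* and *Rap1a* had their highest mean FPKM in Th2 cells, and *Lck* and *Was* their lowest. None of them differed past the threshold from the subset next in order. Th1 minus Th2 had an adjusted p of 0.540 for *Zap70* and 0.355 for *Rap1a* (limma). Th17 minus Th2 had 0.0948 for *Lck* and 0.286 for *Was* (limma). Whether *Rnf128* bears on any of these mRNAs was not tested, and the ligases act on proteins.

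Of 15 transcription factors linked to anergy or quiescence, 12 were tested. Against naive cells, 2 were higher and 9 lower in Th1, 2 higher and 8 lower in Th2, and 2 higher and 7 lower in Th17. Among all genes tested, 33.8%, 31.8% and 37.5% were higher and 33.5%, 38.7% and 29.8% lower in the same order. The median differences of the factors were -1.26, -1.34 and -0.72, against -0.01, -0.11 and 0.08 for all genes tested. *Klf2*, a factor of quiescent T cells, fell from an FPKM of 257 and 221 in the naive libraries to between 6.35 and 15.9 in the effector libraries. *Foxo1*, known as an activator of naive T cell genes, fell from 69.7 ± 1.57 to 21.5 ± 1.07, 42.4 ± 1.34 and 16.9 ± 1.72, and *Ikzf1*, which encodes Ikaros, from 143 ± 5.95 to 57.3 ± 4.51, 40.9 ± 2.55 and 56.4 ± 1.86. *Foxp3*, the factor of regulatory T cells, had 6.68 and 12.8 in naive, 0.874 and 1.13 in Th1, 0.423 and 0.541 in Th2 cells, and 3.03 and 5.76 in Th17 libraries. The 2 factors that were higher in each subset were *Nfatc2* and *Nfat5*. *Nfatc2* rose from 12.8 ± 2.22 in naive cells to 51.9 ± 8.95, 20.8 ± 1.27 and 41.8 ± 5.9 in Th1, Th2 and Th17 cells. *Nfat5* rose from 11.4 ± 0.599 to 18.8 ± 2.24, 21.4 ± 1.61 and 27.4 ± 3.51 (SD, n = 2). These 2 genes were named after their values were seen, as were *Egr2* and *Egr3*, which drive ligase genes in anergic cells. *Egr2* had 1.47 and 2.07 in naive, 0.235 and 0.124 in Th1, 1.96 and 1.90 in Th2 cells, and 1.86 and 2.36 in Th17 libraries. Both Th1 libraries lay below all others. *Egr3* had 1.77 and 3.37 in naive and 2.64 and 3.11 in Th17 libraries, but 0.339 to 0.429 in Th1 and Th2 libraries.

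**Figure D4:**
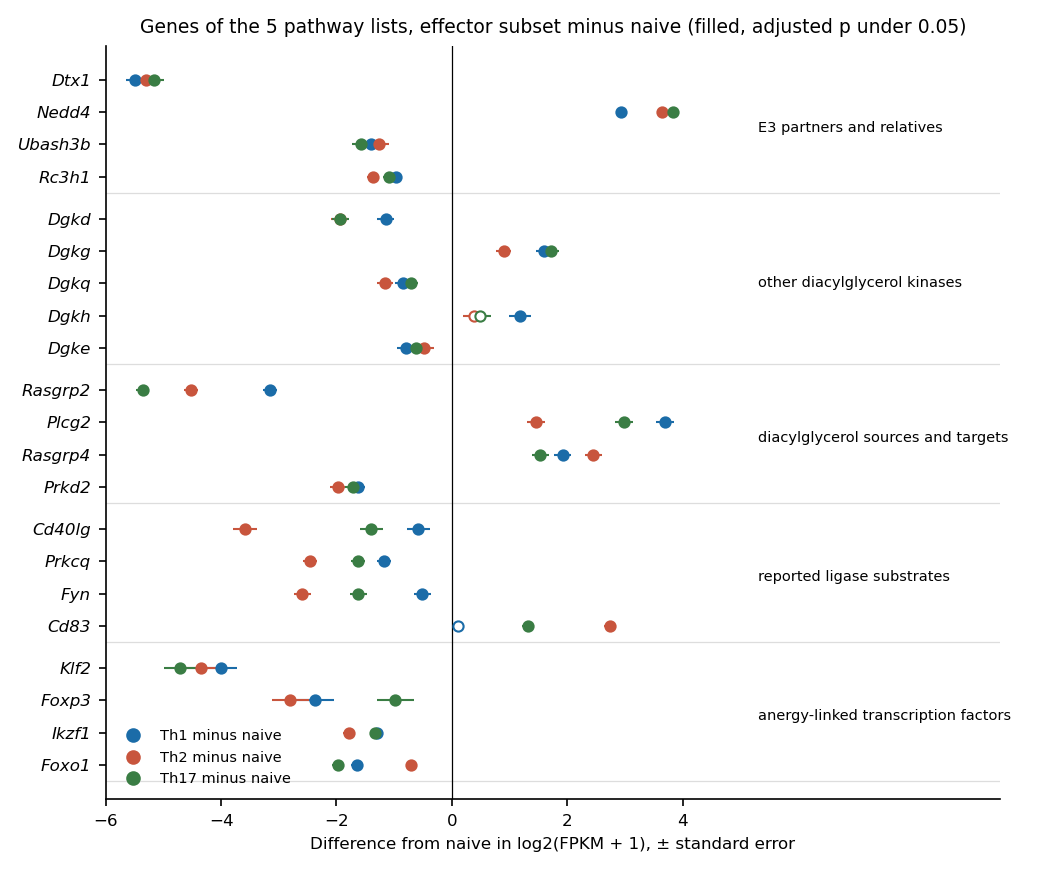
Differences from naive cells in log2(FPKM + 1) with standard errors (x axis) for named genes of the 5 pathway lists (y axis), colored by effector subset; filled points passed an adjusted p of 0.05 (limma). *Dtx1*, *Rasgrp2* and *Klf2* lie furthest to the left, and *Nedd4* and *Plcg2* furthest to the right.

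For each of the 8 genes, the 2 genes with the most similar profile were found by the Euclidean distance between log2(FPKM + 1) values centered on their mean over the 8 libraries. *Rnf128* was closest to *Htr1b* (distance 0.712) and *Stfa2* (0.949), which had a mean FPKM of 47.5 and 56.3 in Th2 cells and at most 0.627 in the mean of any other group. *Cblb* was closest to *Cast* (0.582), with 33.4 in naive, 44.6 in Th1 cells, 16.7 in Th2 and 40.9 in Th17 cells, and to *Prickle1* (0.615). *Itch* was closest to *Bmp2k* (0.229) and *Terf1* (0.278), and *Peli1* to *Mapk1ip1* (0.177) and *Daf2* (0.208). *Ndfip1* was closest to *Pkmyt1* (0.212) and *Tonsl* (0.253), *Dgka* to *Bcl9l* (0.296) and *Fam65b* (0.381), and *Dgkz* to *Mark2* (0.199) and *Sbf1* (0.219). *Cbl*, whose profile was set by the gap between the naive libraries, was closest to *Cpeb4* (0.321) and *N4bp2* (0.374). A small distance says only that the values ran together over these libraries.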

How the data were processed

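RNA from naive CD4 T cells and effector Th1, Th2 and Th17 cells (2 libraries each) was sequenced by the authors as 50-base reads and aligned to mm10 with Bowtie 0.12.8 and TopHat 1.3.2. The authors computed FPKM per gene with Cufflinks 2.0.2 and deposited FPKM with its confidence bounds. The annotation is not given in the sources used here. The methods name a kit without strand and the labels a stranded kit, so reads of overlapping genes on opposite strands may not be separable.

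FPKM of rows with the same symbol was summed. Differences were fitted on log2(FPKM + 1) for the 11198 genes whose mean FPKM reached 1 by limma 3.58.1 in R 4.3.3 (4 group means, all 8 libraries, mean-variance trend), and tested on simulated data first. For genes of low FPKM, adding 1 makes the change look smaller than it is. Fragments were implied from the confidence interval as counting error, so precision from depth covers counting error only. With 2 libraries a group, an SD is a rough estimate. Same-numbered libraries deviated together (correlation of replicate differences 0.138 to 0.294 over the 6 pairs of groups). A fit that took the replicate numbers in the titles as pairs (the replicate block) was therefore run beside each comparison. P-values given without a named alternative come from the fit of 4 group means, which does not use the pairs.

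Of the 50-base words in the annotated transcripts (GENCODE, GRCm38) of the 8 genes, 0% to 3.27% also occur in transcripts of other genes. Upstream sequences came from RefSeq, GRCm38.p6, where 6 of the 7 genes looked up had an entry. Python 3.11.15 was used for the tables, with pandas 2.3.3 and numpy 2.4.6. The 8 genes and the lists were chosen with earlier results of these data known. Named from each of the 5 lists were the 4 tested genes with the largest absolute mean difference from naive cells, and all tested diacylglycerol kinases. Alternatives were a pseudocount of 0.1, other filters, median scaling, quantile normalization, no trend, only the 2 groups compared, the replicate block, the highest row per symbol, and each library left out.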

Additional observations from a re-analysis of the deposited data

Results flagged for a closer look

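For 5 of the 8 genes at least 1 of the 3 differences between subsets passed the threshold. Taken 1 comparison at a time, 44.3% of all genes tested differed between Th1 and Th2, 43.6% between Th17 and Th2 and 25.1% between Th1 and Th17 cells. The share of all genes with at least 1 of these differences is no smaller than 44.3% and was not computed. The count of 5 is therefore not read as an excess. Each pair of subsets was compared directly (limma), and the difference with the largest size past the threshold is given on the log2(FPKM + 1) scale. Th1 minus Th2 was -5.02 for *Rnf128* and 0.65 for *Dgka*, and Th1 minus Th17 was -0.37 for *Peli1*. Since *Rnf128* entered the test through Th2 alone, some difference between Th2 and the other groups followed from the filter. Th17 minus Th2 was 1.76 for *Cblb* and -0.69 for *Itch*. The call of *Peli1* held in 6 of the 17 alternatives and that of *Dgka* in 12 of them. *Cbl* and *Ndfip1* had no such difference with or without the replicate block, and *Dgkz* had such differences only with it.

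Of the 21 named genes of the pathway lists, 16 had such a difference in at least 1 of the 3 comparisons. Most of them were named for large differences from naive cells in these same libraries. The matching share of all genes was not computed, so this count is not read as an excess either. Th1 minus Th2 was 0.40 for *Rc3h1*, 0.80 for *Dgkd*, 0.79 for *Dgkh*, 2.24 for *Plcg2*, 3.01 for *Cd40lg*, 1.28 for *Prkcq*, 2.08 for *Fyn*, -2.63 for *Cd83* and 0.48 for *Ikzf1*. Th17 minus Th2 was 0.83 for *Dgkg*, 0.45 for *Dgkq*, -0.93 for *Rasgrp4*, 1.82 for *Foxp3* and -1.28 for *Foxo1*. Th1 minus Th17 was -0.91 for *Nedd4* and 2.21 for *Rasgrp2*. With median scaling *Rc3h1* (adjusted p = 0.0514) and *Dgkq* (adjusted p = 0.108, limma) no longer passed. With the replicate block, *Prkd2* (Th1 minus Th2, adjusted p = 0.00755, and Th17 minus Th2, adjusted p = 0.0227) and *Klf2* (Th1 minus Th17, adjusted p = 0.0443, limma) passed as well.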

How the results depend on the processing

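Of the 816 values of single genes computed under the 17 alternatives, 747 neither changed direction nor crossed the threshold. Another 10 became stronger, 25 weaker and 34 reversed. The falls of *Dgka*, *Dgkz* and *Peli1* and the rise of *Ndfip1* against naive cells passed under all 17 alternatives in each subset, as did the differences of *Cblb* between Th2 and the other groups. Those of *Rnf128* passed too, but the gene had entered the test through Th2 alone. The cause of the changes below was not tested. With the replicate block (replicate numbers taken as pairs), 5 of the 8 genes differed between Th1 and Th2 cells and 5 between Th17 and Th2 cells, against 3 and 3 without it. The added genes were *Peli1* and *Dgkz* in the former, *Dgka* and *Dgkz* in the latter, and the block changed no other call of the 8 genes. Over all 11198 genes tested, the block gave 5983 calls between Th1 and Th2 cells, against 4961 without it. Between Th17 and Th2 cells it gave 5969 against 4885, and between Th1 and Th17 cells 3711 against 2815. The larger counts among the 8 genes are thus not read as particular to them.

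Between Th1 and Th17 cells, 1 of the 8 genes was called in place of 2 with a filter at a mean FPKM of 5, median scaling, quantile normalization, no trend or only the 2 groups compared, *Peli1* being lost, and 0 to 2 with a library left out. That filter gave 1793 of all genes there, since fewer were tested. With each library left out, the number over all genes was 1558 to 2759 between Th1 and Th17, 3106 to 4936 between Th1 and Th2 and 2738 to 4876 between Th17 and Th2 cells, where fewer libraries were fitted and the lone library of a group was assumed to vary like the other groups.

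Against naive cells, median scaling turned *Itch* in Th1 to 0.028 and *Cbl* in Th2 to 0.018. Quantile normalization turned *Rnf128* to -0.15 in Th1 and -0.37 in Th17 and *Cbl* in Th2 to 0.0014. Between subsets, median scaling gave -0.096 for *Peli1* and -0.025 for *Ndfip1* (Th17 minus Th2), and 0.030, 0.036 and 0.048 for *Cblb*, *Rnf128* and *Ndfip1* (Th1 minus Th17). Quantile normalization gave -0.098 for *Ndfip1* (Th1 minus Th2), -0.079 and -0.010 for *Peli1* and *Ndfip1* (Th17 minus Th2), and 0.21 for *Rnf128* (Th1 minus Th17). With each library left out, *Cbl* minus naive ranged from -0.54 to 0.59 in Th1, -0.68 to 0.46 in Th2 and -0.77 to 0.37 in Th17, and *Itch* in Th1 from -0.066 to 0.041. Th1 minus Th17 ranged from -0.17 to 0.061 for *Cblb*, -0.054 to 0.37 for *Dgka*, -0.074 to 0.33 for *Dgkz*, -0.21 to 0.13 for *Ndfip1* and -0.031 to 0.027 for *Rnf128*. *Ndfip1* ranged from -0.096 to 0.33 (Th1 minus Th2) and -0.055 to 0.37 (Th17 minus Th2), and *Peli1* from -0.028 to 0.19 (Th17 minus Th2). Over all genes, quantile normalization put the median difference from naive cells at -0.13 in Th1, -0.13 in Th2 and -0.12 in Th17, where it was -0.01, -0.11 and 0.08 on the values as given. Of the calls between Th17 and Th2 cells, 72.6% were higher in Th17 on those values, 53.3% after median scaling and 50.7% after quantile normalization. For Th1 minus Th2 the share was 61.8%, 52.8% and 50.9%, for Th1 minus Th17 36.5%, 48.1% and 49.7%, and for Th17 minus naive 55.7%, 53.4% and 44.2%. The 8 implied fragments of *Rnf128* in each naive library limit its comparison with naive cells.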

Other observations

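*Dgkk*, a diacylglycerol kinase gene below the filter on low values and named after its values were seen, had an FPKM of 0.880 and 0.988 in the Th17 libraries. It was listed at 0 in 5 of the other libraries and at 0.00501 in Th2 replicate 2.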
